A study of Homo sapiens with 8 samples.

Results

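The comparison described here sets 2 expression arrays of cells given a lentivirus labelled as overexpressing SOX2 (OE-SOX2) against 2 arrays of cells given a control lentivirus (EF1a-control). These 4 arrays were chosen by their titles, from 8 in the series, of which 2 others were labelled OE-NANOG and 2 OE-OCT4. All cells were H1, a single line of human embryonic stem cells, grown on Matrigel in mTeSR medium, and all received virus together with polybrene. Total RNA was hybridised, as labelled copies, to Illumina bead arrays. Neither the time from transduction to harvest nor the share of cells carrying a vector is stated in the labels. Nor do they say that the arrays of a group came from different cultures, and p-values then measure the variation among these arrays alone, which could be technical. The series addresses how NANOG, OCT4 and SOX2 regulate one another in these cells.

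SOX2 is an HMG-box transcription factor that binds DNA next to OCT4 at many enhancers active in pluripotent cells, and OCT4, SOX2 and NANOG regulate their own and each other's genes. Outside the pluripotent state SOX2 marks the neural plate and neural progenitors, where it acts beside its relatives SOX1 and SOX3. Stem cells are sensitive to the dose of SOX2 in both directions.

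All 12 pluripotent stem cell markers that had a probe were above the filter intensity on both SOX2 arrays and on both control arrays. Of the markers of other cell types, 5 of 12 for fibroblasts were above it on both SOX2 arrays and 5 on both control arrays. The corresponding numbers were 4 and 3 of 12 for blood or endothelium, 5 and 3 of 10 for neural cells, 1 and 2 of 9 for trophoblast, 2 and 1 of 8 for endoderm and 1 and 0 of 6 for mesoderm. Values below are background-corrected intensities with an offset of 50 added, on a linear scale, and 81.5 is the filter intensity on that scale. The SOX2 probe ILMN_1770635 read 636 and 1029 on the SOX2 arrays, against 1230 and 1545 on the control arrays, and the probe ILMN_2177156 read 523 and 460.1 against 917 and 1295. Both probes read lower on both arrays labelled SOX2 than on either control array, with log2 changes of -0.77 (adjusted p = 0.0910) and -1.15 (adjusted p = 0.00840, limma over all probes). Where these probes lie relative to the vector's SOX2 sequence is not stated, so they check nothing about the label, and the arrays are called by their labels throughout.

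The SOX2 replicates differed from each other more than the control replicates did. Between the 2 SOX2 arrays 303 of 12436 genes were more than 1 log2 unit apart, against 44 between the control arrays, and the median absolute difference was 0.21 log2 units, against 0.14. The most marked differences were in ribosomal RNA, the structural RNA of ribosomes, which has no poly(A) tail. The 18S probe ILMN_3243593 (RNA18SN5) read 9365 and 708 on SOX2 replicates 1 and 2, against 12090.3 and 10097 on the control arrays. The 28S probe ILMN_3251587 (RNA28SN5) read 3087 and 99.4 on the SOX2 arrays, against 3553 and 3014 on the control arrays. Replicate 2 was thus the low array for both RNAs, while replicate 1 lay near the control arrays.

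Besides these RNAs, the genes furthest below replicate 1 on SOX2 replicate 2 included the replication-dependent histone gene H4C3 (10764 and 1505 on the SOX2 arrays, against 13837 and 11857 on the control arrays). MAP1B, a microtubule-associated protein, read 822 and 78.6 on the SOX2 arrays, against 219.8 and 399.7 on the control arrays. TRIM71, an RNA-binding protein of early embryos, read 689.7 and 96.6 on the SOX2 arrays, against 1258 and 1190.5 on the control arrays. EIF3CL, NBPF9, NBPF10, ALYREF and GNL3L differed the same way, and the values of EIF3CL, the NBPF genes and H4C3 are uncertain because near-identical copies exist. The differences may belong to single probes. Against control, the probes used had log2 changes of -1.40 for ALYREF and -1.14 for GNL3L, and further probes of these genes -0.12 and -0.04. Further probes had 0.15 for NBPF9 and 0.17 to 0.21 for NBPF10. In the other direction, HMGA1, a chromatin protein abundant in stem cells, read 3075 and 9474 on the SOX2 arrays, against 4439 and 3527 on the control arrays. The transcription elongation factor SUPT5H read 371 and 1151 on the SOX2 arrays, against 310.1 and 269 on the control arrays. ZNF768, TMEM184B, HYOU1, ACIN1, CDC42BPB, OTUB1, SF1 and AGPAT1 were also higher on replicate 2. Further probes had log2 changes against control of 0.89 for HYOU1, near the 0.84 of the probe used, 0.13 for HMGA1, -0.30 for OTUB1 and -0.41 for SF1. None of these 20 genes was called in the comparison with control, and 11 of the 303 genes were. None of the other 13 histone genes measured was more than 1 log2 unit apart, and the median difference between SOX2 replicates over the 14 histone genes was -0.07 log2 units, against -0.03 over all genes.

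**Figure D1:**
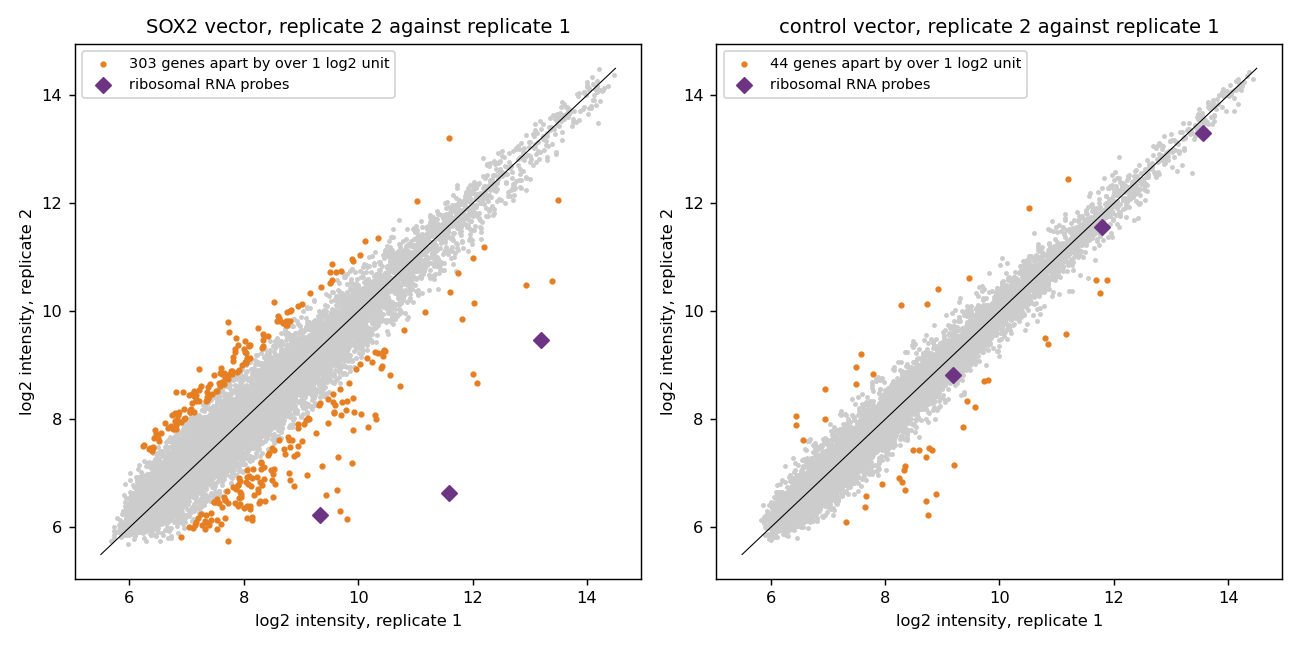
Log2 background-corrected intensity of each gene on replicate 2 against replicate 1, for the SOX2 arrays (left) and the control arrays (right), with genes more than 1 log2 unit apart in orange and ribosomal RNA probes as diamonds. The 303 orange points on the left, against 44 on the right, and the 3 diamonds far below the diagonal on the left show where SOX2 replicate 2 departs from replicate 1.

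Relative to control, the cells labelled SOX2 had higher RNA of stress response genes (16 of 31 rose), of genes of MHC class I and antigen presentation (8 of 14) and of many collagen and matrix genes (7 of 22), where 6.1% of all genes rose. The 8 antigen presentation genes include CD1C, which was tested only because it was high on the SOX2 arrays. Genes of the list of metallothioneins and zinc (6 of 9 fell, all of them metallothioneins), mitotic genes (9 of 28), cholesterol synthesis genes (6 of 18) and pluripotency genes (8 of 26) were lower, where 5.01% of all genes fell. The gene lists were chosen with earlier results of these data known, so counts above the share of all genes are not independent support. Except in the metallothionein list, most calls of each list named here were lost with some single array left out, as given below. The single largest changes were rises of CH25H, TRIB3 and FBN2 and a fall of LDB2. In all, 1382 of 12436 genes passed an adjusted p of 0.05 (limma, two-sided, Benjamini-Hochberg), which is 11.1% of those tested. The SOX2 arrays were higher for 759 of them and lower for 623. The change was at least 2-fold for 214 of the genes that rose and 105 of those that fell, and the median log2 change of all genes was 0.00. In every called gene the 2 SOX2 arrays lay on the same side of the 2 control arrays. That held for 25.1% of all genes upwards and 25.1% downwards. The across-gene correlation of 2 independent differences, SOX2 replicate 1 minus control replicate 1 and SOX2 replicate 2 minus control replicate 2, was 0.446, and 0.604 with the control arrays exchanged, with genes not being independent replicates.

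How many genes were called depended on single arrays. A fit that leaves 1 array in a group no longer holds the difference between that group's replicates in its estimate of the spread. Counts without a SOX2 array, here and in the lists below, thus take no account of how far apart the SOX2 arrays were. Without SOX2 replicate 2, the array with little ribosomal RNA signal, 1548 genes were called, 1079 of them among the 1382 with the same direction. Leaving out SOX2 replicate 1 gave 3516 calls, which held 1329 of the 1382. The count was 336 when control replicate 1 was dropped, 817 when control replicate 2 was dropped and 608 for each NANOG array. With any 1 of the 8 arrays left out, 188 rises and 97 falls kept their call. Gene names and lists below are reported from the fit of all 8 arrays, with the calls that did not hold named beside them. The share of all genes to set beside each list's counts in that fit is 6.1% for rises and 5.01% for falls. Because the lists were chosen with earlier results known, a count above that share describes the list and is not a test of it.

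**Figure D2:**
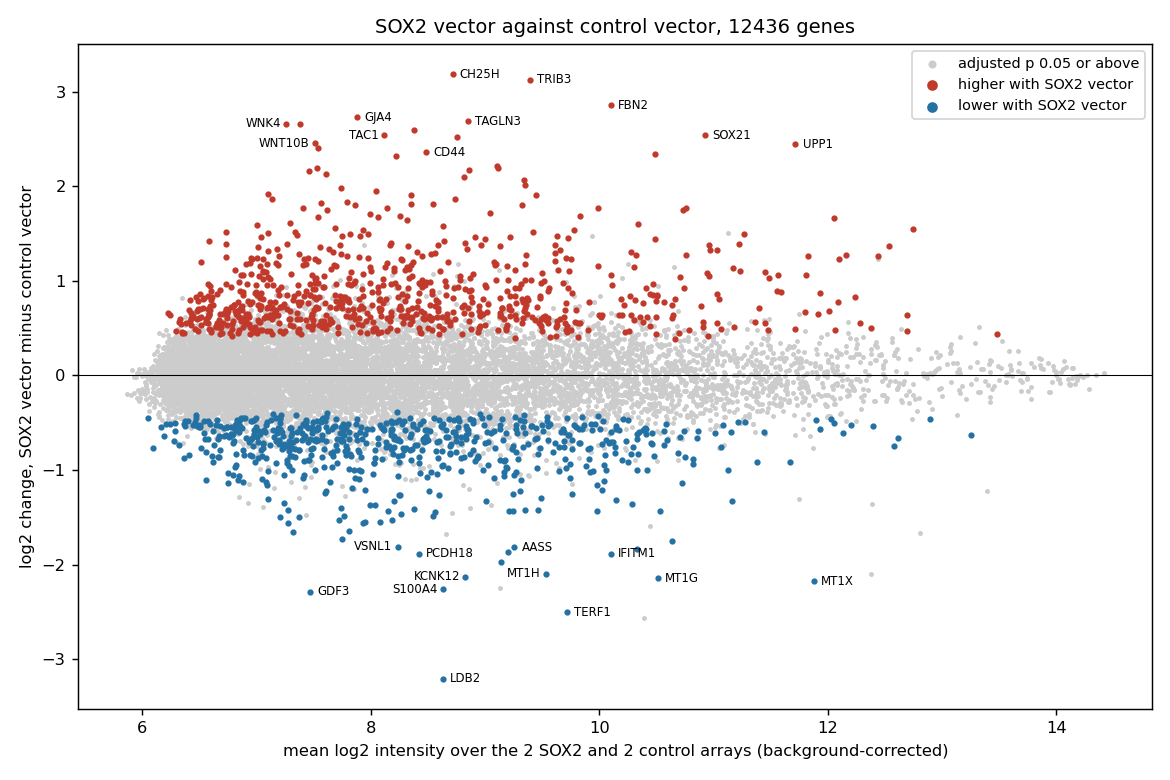
Log2 change of each of 12436 genes, SOX2 vector minus control vector, against its mean log2 intensity over the 4 arrays, with called genes in red (higher) and blue (lower) and the largest changes named. Changes of more than 2 log2 units occur from dim genes such as WNK4 to bright ones such as UPP1 and MT1X.

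**Figure D3:**
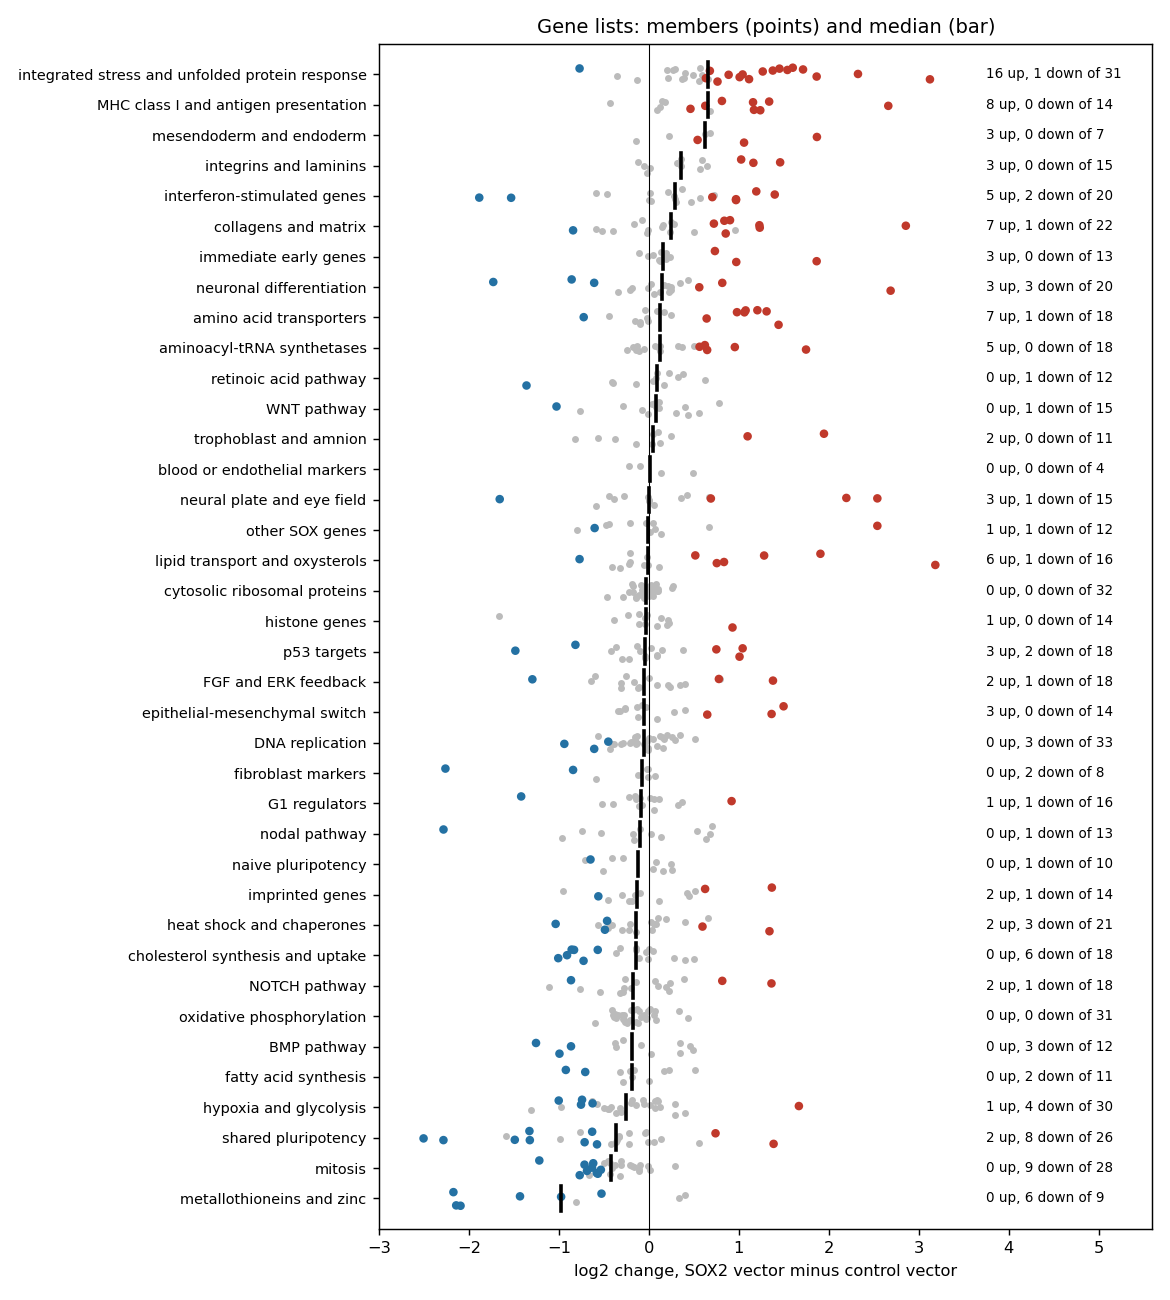
Log2 change of every measured member (points; called members in red or blue) and the median (bar) of each gene list except ribosomal RNA, ordered by median, with the number called up and down at the right. Of the lists drawn, metallothioneins and zinc lies furthest down with a median of -0.98, and the stress response and the MHC class I and antigen presentation lists lie furthest up with a median of 0.65 each.

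The largest rise was in CH25H, the enzyme that makes 25-hydroxycholesterol, which read 1239.8 and 1297 on the SOX2 arrays, against 99.8 and 195 on the control arrays (log2 change 3.18, SE 0.28, adjusted p = 0.000726). TRIB3, a pseudokinase induced in the stress response to unfolded protein and amino acid shortage, read 2409 and 1631 on the SOX2 arrays, against 207 and 249.8 on the control arrays (log2 change 3.13, SE 0.22, adjusted p = 0.000267). FBN2, a microfibril protein of embryonic matrix, read 3034 and 2887 on the SOX2 arrays, against 312 and 535 on the control arrays (a 7.24-fold rise). In all of these genes both SOX2 arrays stood well clear of the control arrays, and the control arrays differed more among themselves than the SOX2 arrays did for CH25H and FBN2. Neural genes were also among the largest rises. SOX21, a SOX gene of neural progenitors, read 4732 and 4619.7 on the SOX2 arrays, against 664 and 974 on the control arrays (5.82-fold). TAGLN3, an actin-binding protein of neurons, read 1067 and 1284 on the SOX2 arrays, against 152 and 217 on the control arrays (6.44-fold). TAC1, the precursor of substance P, read 604 and 737 on the SOX2 arrays, against 106 and 124 on the control arrays (5.8-fold).

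The other large rises spanned several functions. The gap junction gene GJA4 read 501 and 736 on the SOX2 arrays, against 105 and 79.5 on the control arrays, and UPP1, which breaks down uridine, read 8829 and 6968 on the SOX2 arrays, against 1655 and 1254 on the control arrays. A further UPP1 probe had a log2 change of 0.47. MIR503HG, the host transcript of a microRNA cluster, read 899 and 739 on the SOX2 arrays, against 114 and 160.4 on the control arrays. CD44, the hyaluronan receptor, read 880.1 and 746 on the SOX2 arrays, against 126 and 198 on the control arrays, and the membrane protein EMP1 read 420.5 and 437 on the SOX2 arrays, against 75.0 and 86.9 on the control arrays. These genes rose between 5.14-fold (CD44) and 6.64-fold (GJA4), with adjusted p from 0.000238 to 0.00242. A further 3 genes were not above the filter intensity on either control array, so their folds are lower bounds. The kinase gene WNK4 (277 and 538 on the SOX2 arrays) was at least 4.73-fold higher, and CD1C, which presents lipid antigens (479.9 and 364), at least 5.13-fold. WNT10B, a WNT ligand (371 and 493), was at least 5.24-fold higher. The pseudogene PDCL3P4 rose too (826 and 1291, against 238 and 136 on the control arrays), although its probe may also bind its parent gene. A further PDCL3P4 probe had a log2 change of 0.33. The calls of all 15 genes held with any 1 of the 8 arrays left out, under the filter that asks for 2 of 8 arrays. CH25H, GJA4, WNK4, CD1C, WNT10B and EMP1 were not tested under a filter on all 8 arrays. WNK4 and CD1C were above the filter intensity only on the SOX2 arrays and WNT10B only there and on 1 OCT4 array, so that these genes were tested only because they were high there.

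LDB2, a cofactor of LIM-domain transcription factors, had the largest fall, to 138 and 124 on the SOX2 arrays, against 1615 and 901 on the control arrays (9.23-fold lower; SE 0.24, adjusted p = 0.000342). TERF1, which binds telomere repeats and is highly expressed in pluripotent cells, read 398 and 313 on the SOX2 arrays, against 1902 and 2113 on the control arrays (5.68-fold lower). The TGF-beta family ligand GDF3 read 70.4 and 91.4 on the SOX2 arrays, against 657 and 233 on the control arrays (log2 change -2.29, SE 0.45, adjusted p = 0.0173), and here the control arrays were far apart. S100A4, a calcium-binding protein, read 156 and 210.5 on the SOX2 arrays, against 927 and 817 on the control arrays (4.8-fold lower), and the potassium channel gene KCNK12 read 249 and 190.1 on the SOX2 arrays, against 919 and 981 on the control arrays (4.37-fold lower). PCDH18, a cell adhesion gene, read 241 and 132 on the SOX2 arrays, against 702 and 618 on the control arrays, and VSNL1, a neuronal calcium sensor, read 156 and 167 on the SOX2 arrays, against 598 and 533 on the control arrays. CXXC5, a zinc-finger protein that limits WNT signalling, read 924 and 500.0 on the SOX2 arrays, against 2603 and 2262 on the control arrays, and TYMSOS, an antisense transcript at the TYMS gene, read 338 and 283 on the SOX2 arrays, against 1332 and 949 on the control arrays. The metallothionein genes MT1X, MT1G and MT1H complete the list with IFITM1, AP1S1 and AASS. AP1S1, a subunit of clathrin adaptors, read 448 and 180.3 on the SOX2 arrays, against 1287 and 969 on the control arrays (log2 change -1.97, adjusted p = 0.0123), and AASS, which starts lysine breakdown, read 460.1 and 231 on the SOX2 arrays, against 1003 and 1314 on the control arrays (log2 change -1.82, adjusted p = 0.0189). GDF3 and AP1S1 lost their calls without control replicate 1, and AASS without each control array and each NANOG array in turn. IFITM1 lost its call without control replicate 1, each NANOG array or SOX2 replicate 2. PCDH18 and CXXC5 lost theirs with only the 2 groups in the fit. The highest adjusted p of the 4 genes with an array left out was 0.200.

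**Figure D4:**
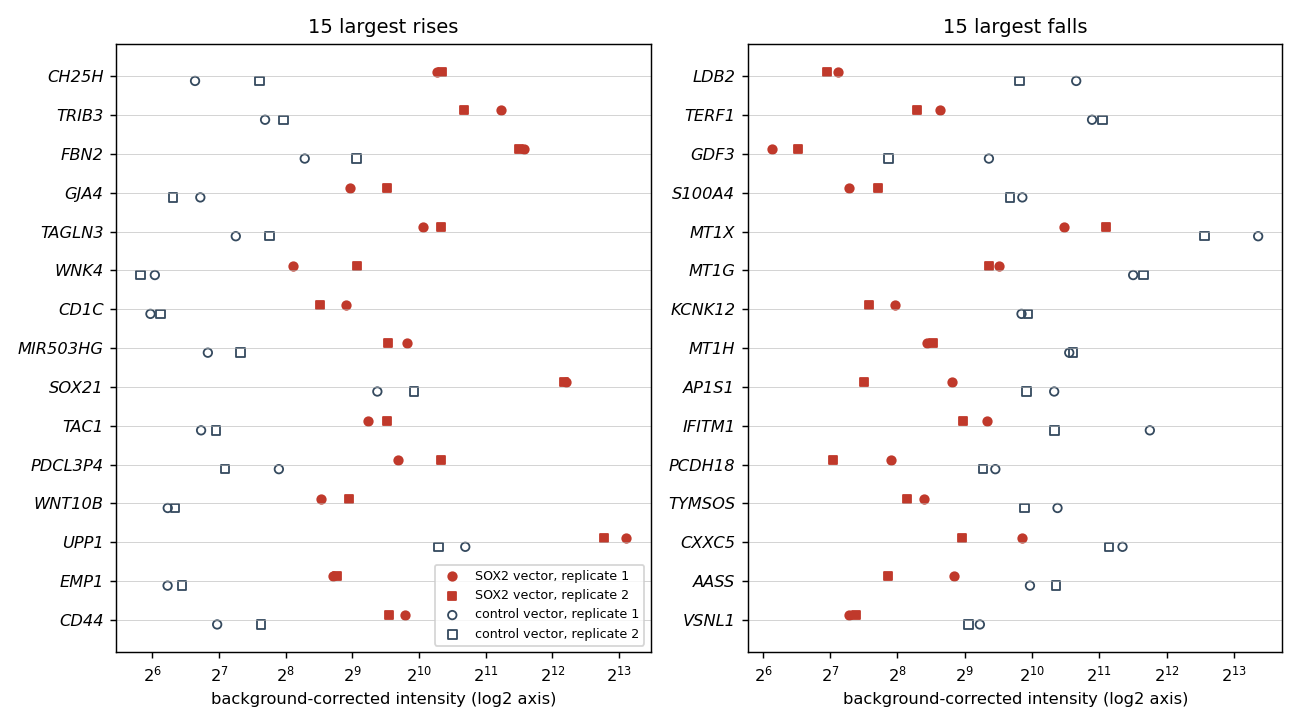
Background-corrected intensity (log2 axis) on each of the 4 arrays for the 15 genes with the largest rises and the 15 with the largest falls; SOX2 arrays and control arrays are marked by colour. Every SOX2 point lies beyond both control points, and the control points of GDF3 and IFITM1 lie apart from each other.

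Genes of the integrated stress response and the unfolded protein response were higher as a group on the SOX2 arrays. When amino acids run short or unfolded protein accumulates in the endoplasmic reticulum, kinases slow general translation while translation of ATF4 increases, and ATF4 with its partners then drives genes of amino acid supply and of recovery. Of 31 genes measured in this list, 16 rose and 1 fell, against 6.1% and 5.01% of all genes, and 28 were higher in mean. The median log2 change was 0.65, with 0.72 on replicate 1 and 0.67 on replicate 2. Among the transcription factors, DDIT3 (CHOP), which acts under prolonged stress, read 579 and 768 on the SOX2 arrays, against 135 and 131 on the control arrays (log2 change 2.32, SE 0.14, adjusted p = 0.000238). ATF3, induced by ATF4, read 663 and 998 on the SOX2 arrays, against 196 and 254 on the control arrays (log2 change 1.87, SE 0.21, adjusted p = 0.00206). CEBPB, a partner of ATF4, read 2200.4 and 2297 on the SOX2 arrays, against 700.2 and 786 on the control arrays (log2 change 1.60, SE 0.14, adjusted p = 0.000819), and ATF4 itself had a log2 change of 0.57 (adjusted p = 0.0890), short of the threshold. STC2, a secreted glycoprotein of this response, read 900.0 and 1019.9 on the SOX2 arrays, against 238 and 359 on the control arrays (log2 change 1.71, SE 0.18, adjusted p = 0.00154). Both SOX2 arrays were above both control arrays for each of these genes.

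Several rises in this list were in enzymes of amino acid metabolism. The serine pathway genes PSPH and SHMT2, the cysteine synthesis gene CTH and the asparagine synthetase gene ASNS were among the 16. PSAT1 (log2 change 0.65, adjusted p = 0.0781) and PHGDH (log2 change 0.40, adjusted p = 0.145), which precede PSPH in serine synthesis, did not pass. The endoplasmic reticulum chaperone gene HSPA5 passed narrowly (log2 change 0.63, adjusted p = 0.0489). XBP1, DNAJB9 and EDEM1, also of the unfolded protein response, had log2 changes of 0.56, 0.36 and 0.27 with adjusted p from 0.0599 to 0.198. VLDLR, a lipoprotein receptor gene in this list, fell (254 and 231 on the SOX2 arrays, against 439 and 389.7 on the control arrays, log2 change -0.77, SE 0.13, adjusted p = 0.00829). With any 1 array left out, 8 of the 17 calls held, TRIB3, DDIT3, ATF3, STC2, CEBPB, PPP1R15A, CHAC1 and CEBPG, and the rest reached an adjusted p of up to 0.245. Rises in the list, 16 on all arrays, numbered 9 without control replicate 1. When SOX2 replicate 2 was dropped, 18 rose and 1 fell.

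The promoters of 3 genes that rose, ASNS, CHAC1 and IARS1, are shown because each window holds the letters TGATGNAA, a form of the amino acid response element to which ATF4 binds, and the fourth, HSPA5, because it holds the endoplasmic reticulum stress element, a CCAAT box and a CCACG box at a set distance. The 4 were chosen after their values were seen. Sequences are from RefSeq (GRCh38.p14), 250 bases before to 50 after a gene's start, 5′ to 3′ along the gene's strand, with the match on either strand in capitals. ASNS lies at chr7:97872359-97872658 (minus strand), CHAC1 at chr15:40953221-40953520 (plus strand), IARS1 at chr9:92293648-92293947 (minus strand) and HSPA5 at chr9:125241294-125241593 (minus strand).
ASNS: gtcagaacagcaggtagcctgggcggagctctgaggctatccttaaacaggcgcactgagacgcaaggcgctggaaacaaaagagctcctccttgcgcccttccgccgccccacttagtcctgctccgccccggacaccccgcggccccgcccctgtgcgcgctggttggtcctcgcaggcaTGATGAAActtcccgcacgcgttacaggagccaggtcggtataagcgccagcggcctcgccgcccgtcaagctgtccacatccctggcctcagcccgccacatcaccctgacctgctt
CHAC1: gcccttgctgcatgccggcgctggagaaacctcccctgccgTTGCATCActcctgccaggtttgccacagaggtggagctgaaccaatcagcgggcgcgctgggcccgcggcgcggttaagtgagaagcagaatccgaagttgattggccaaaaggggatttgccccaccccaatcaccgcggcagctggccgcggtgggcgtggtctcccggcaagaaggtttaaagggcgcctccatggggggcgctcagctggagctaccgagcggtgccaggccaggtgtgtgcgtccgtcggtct
IARS1: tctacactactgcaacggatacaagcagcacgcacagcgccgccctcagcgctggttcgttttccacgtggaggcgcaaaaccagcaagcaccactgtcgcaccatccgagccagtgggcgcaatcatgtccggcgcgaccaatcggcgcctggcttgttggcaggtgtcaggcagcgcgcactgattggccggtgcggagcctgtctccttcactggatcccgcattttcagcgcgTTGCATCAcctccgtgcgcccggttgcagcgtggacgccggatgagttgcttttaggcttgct
HSPA5: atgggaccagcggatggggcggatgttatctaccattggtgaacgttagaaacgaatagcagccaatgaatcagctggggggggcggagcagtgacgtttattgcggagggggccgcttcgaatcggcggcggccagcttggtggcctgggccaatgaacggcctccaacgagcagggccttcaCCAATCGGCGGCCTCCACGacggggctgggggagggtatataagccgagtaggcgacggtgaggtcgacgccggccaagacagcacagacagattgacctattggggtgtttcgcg
Both strands of all 35116 windows were searched, and 3.62% of the windows held TGATGNAA. A gene with several windows was counted if any of them matched. By gene, TGATGNAA was present in 4.46% of the 27305 genes of the table and in 2.9% of the 9936 that were also measured. It was present in 35 of 626 genes that rose (5.59%) and 19 of 505 that fell (3.76%). In the stress list 5 of 28 matched genes had such a window (ATF3, ASNS, CHAC1 and CEBPG, which rose, and JDP2, with log2 change 0.20, adjusted p = 0.320). The endoplasmic reticulum stress element was found in 25 genes of the table, 15 of them measured, and 3 of these were list members (HSPA5, XBP1 and CRELD2). A match describes letters in the window and is not evidence of binding. ASNS read 6558 and 4842 on the SOX2 arrays, against 1889 and 2909 on the control arrays (log2 change 1.27, adjusted p = 0.0144). CHAC1, a glutathione-degrading enzyme, read 146 and 186 on the SOX2 arrays and was not above the filter intensity on either control array, so it was at least 2.02-fold higher.

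Genes that charge tRNAs and import amino acids, which lie downstream of ATF4, were mixed. Of 18 aminoacyl-tRNA synthetase genes 5 rose and 0 fell, with a median log2 change of 0.12. WARS1, for tryptophan, read 3205 and 3046 on the SOX2 arrays, against 969.6 and 894 on the control arrays (3.36-fold, adjusted p = 0.000238). SARS1, for serine, read 707 and 719.7 on the SOX2 arrays, against 367 and 369 on the control arrays (log2 change 0.95, adjusted p = 0.00180). GARS1, IARS1 and YARS1 rose by 0.65, 0.62 and 0.56 log2 units, each with both SOX2 arrays above both control arrays. A further IARS1 probe had a log2 change of 0.03. The other 13 synthetase genes, with log2 changes from -0.25 (QARS1) to 0.50 (MARS1), did not pass. Of 18 amino acid transporter genes 7 rose and 1 fell (median 0.13). SLC3A2, the shared heavy chain of several transporters, read 2322 and 2413 on the SOX2 arrays, against 807 and 941 on the control arrays (log2 change 1.44, SE 0.12, adjusted p = 0.000512), with a further probe at 0.11. Its light chain partners SLC7A5 (4608 and 4132 on the SOX2 arrays, against 1560.1 and 2800.1 on the control arrays, log2 change 1.06, adjusted p = 0.0334) and SLC7A11, the cystine importer (228 and 142 on the SOX2 arrays, against 80.1 and 91.0 on the control arrays, log2 change 1.08, adjusted p = 0.0189), rose too. SLC7A1, for arginine and lysine, read 1991 and 1906 on the SOX2 arrays, against 595 and 1041 on the control arrays, and SLC6A9, for glycine, read 285 and 280.0 on the SOX2 arrays, against 103 and 145 on the control arrays (log2 change 1.21, adjusted p = 0.00606). TGATGNAA was in a window of 6 of 15 synthetase genes and 6 of 14 transporter genes, against 2.9% of the measured genes with a window. Of these carriers TARS1, MARS1, AARS1, NARS1, SLC1A3 and SLC38A1 were not called, with log2 changes from -0.13 to 0.50. GARS1, IARS1, SLC1A4, SLC3A2, SLC7A1 and SLC1A5 rose.

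Of these calls WARS1, SARS1, SLC3A2 and SLC6A9 held with any 1 array left out, and the others reached an adjusted p of up to 0.232. SLC3A2 lost its call with the median of its probes, and SLC6A9 with only the 2 groups in the fit. Rises among the synthetases numbered 2 without control replicate 1 or a NANOG array, and 3 without control replicate 2 or an OCT4 array. Transporter rises numbered 2 without control replicate 1 and 3 without each NANOG array in turn. On the arrays other than SOX2 replicate 2, 5 rose and 0 fell among the synthetases and 6 rose and 3 fell among the transporters.

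Metallothionein genes were lower on the SOX2 arrays. Metallothioneins are small cysteine-rich proteins that bind zinc and copper, and the metal-sensing factor MTF1 switches their genes on when zinc is abundant. Of 9 genes measured in the list of metallothioneins and zinc, 6 fell, all metallothioneins, and 0 rose, and the median log2 change was -0.98, with -1.07 on replicate 1 and -0.88 on replicate 2. MT1X read 1425 and 2194 on the SOX2 arrays, against 10533 and 6052 on the control arrays (4.52-fold lower, adjusted p = 0.00330). MT1G read 731 and 659 on the SOX2 arrays, against 2905 and 3238 on the control arrays (4.42-fold lower, adjusted p = 0.000726). MT1H read 348 and 369 on the SOX2 arrays, against 1503 and 1561 on the control arrays (4.27-fold lower, adjusted p = 0.00182). MT1E (626 and 604 on the SOX2 arrays, against 1453 and 1900.3 on the control arrays) and MT2A (558 and 636 on the SOX2 arrays, against 1011 and 1361 on the control arrays) fell by 1.43 and 0.98 on the log2 scale, and no SOX2 array reached a control array in any of the 5 genes. MT1F (log2 change -0.81, adjusted p = 0.0641), the zinc exporter gene SLC30A1 (log2 change 0.33, adjusted p = 0.298) and MTF1 (log2 change 0.40, adjusted p = 0.410) did not pass. Single genes of this family are uncertain because their sequences are near-identical and a probe can bind several. The counts of this list, here and against the other factors below, may thus hold repeated readings of the same transcripts. The calls of MT1E, MT1H, MT1G and MT1X held with any 1 array left out, and those of MT2A and MT1M reached an adjusted p of up to 0.186. Leaving out SOX2 replicate 2, 0 rose and 6 fell.

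The metallothionein genes also set the SOX2 arrays apart from those of the other factors. MT1X differed from the NANOG arrays by -3.02 (adjusted p = 0.000380) and from the OCT4 arrays by -1.85 (adjusted p = 0.00813) on the log2 scale, and MT1H by -3.35 (adjusted p = 7.6e-05) and -1.45 (adjusted p = 0.00925). Of the 9 genes, 7 were lower than on the NANOG arrays, against 8.81% of all genes, and 4 lower than on the OCT4 arrays, against 2.99%. The promoters of MT1X (chr16:56682220-56682519, plus strand) and MT2A (chr16:56608334-56608633, plus strand) are shown because they hold repeated copies of the metal response element core, searched as TGCACNC or TGCGCNC on both strands, with 4 and 8 matches (RefSeq, GRCh38.p14; matches in capitals).
MT1X: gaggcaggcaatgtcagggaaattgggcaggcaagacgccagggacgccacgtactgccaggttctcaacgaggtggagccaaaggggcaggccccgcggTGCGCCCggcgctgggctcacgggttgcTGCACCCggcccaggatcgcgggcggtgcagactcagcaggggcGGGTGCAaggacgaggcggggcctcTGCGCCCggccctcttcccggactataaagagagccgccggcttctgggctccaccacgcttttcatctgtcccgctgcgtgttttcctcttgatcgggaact
MT2A: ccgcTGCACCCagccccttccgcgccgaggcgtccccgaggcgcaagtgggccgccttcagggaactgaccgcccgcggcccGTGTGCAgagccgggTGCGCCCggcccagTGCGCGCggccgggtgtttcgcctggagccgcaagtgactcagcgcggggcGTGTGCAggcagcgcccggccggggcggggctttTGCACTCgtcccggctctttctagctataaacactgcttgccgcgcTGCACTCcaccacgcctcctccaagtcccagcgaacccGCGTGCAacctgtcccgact
Counted by gene, with any window matching, these short letters occurred in 33.4% of all genes and 45.8% of those measured, and in 4 of the 5 genes of this list that could be matched.

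Genes that mark the pluripotent state were lower on balance, with most of the core genes short of the threshold. Of 26 measured, 8 fell, 2 rose and 21 were lower in mean, with a median log2 change of -0.36 (-0.42 on replicate 1 and -0.36 on replicate 2). POU5F1, which encodes OCT4, read 2119 and 2679 on the SOX2 arrays, against 3405 and 2790.4 on the control arrays (log2 change -0.37, adjusted p = 0.187). NANOG read 283 and 316 on the SOX2 arrays, against 449 and 316 on the control arrays (log2 change -0.33, adjusted p = 0.349), with overlapping groups, while a dimmer NANOG probe, ILMN_3307710, had a log2 change of -0.57 that passed (adjusted p = 0.0392 over all probes). LIN28A, LIN28B, L1TD1 and PODXL had log2 changes between -0.04 and 0.13. Beside TERF1 and GDF3, the de novo DNA methyltransferase gene DNMT3B fell (1123 and 1858 on the SOX2 arrays, against 4376 and 3012 on the control arrays, log2 change -1.33, adjusted p = 0.0156), as did DPPA2, an early embryonic nuclear protein gene (96.5 and 101 on the SOX2 arrays, against 434 and 178 on the control arrays, log2 change -1.49, adjusted p = 0.0371). SALL4, ZFP42, CD24 and SCGB3A2 were the other falls. ZIC2, a zinc-finger factor of the primed pluripotent state and of forebrain, rose (3243 and 4574 on the SOX2 arrays, against 1063 and 2042 on the control arrays, log2 change 1.39, adjusted p = 0.0329), as did POLR3G. Only the TERF1 call held with any 1 array left out, and the others reached an adjusted p of up to 0.183. Pluripotency falls numbered 1 without control replicate 1 and 3 without each NANOG array in turn. Of 10 genes of naive pluripotency 1 fell, SUSD2, a surface marker of naive cells (92.2 and 106 on the SOX2 arrays, against 180.2 and 135 on the control arrays, log2 change -0.66, adjusted p = 0.0304), and its call was lost without control replicate 1 or any NANOG or OCT4 array. Without SOX2 replicate 2, 1 rose and 8 fell in the pluripotency list, and DPPA5, expressed in naive cells, was not above the filter intensity on either SOX2 array and gave no call in the full set (adjusted p = 0.109). In bulk samples a lower value could come from fewer cells of a kind or from less RNA per cell, which cannot be told apart.

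Neural genes changed in both directions, where 6.1% of all genes rose and 5.01% fell. Of 15 neural plate and eye field genes 3 rose and 1 fell, and the median log2 change was 0.00. Besides SOX21, the eye field gene SIX6 rose (450.1 and 349 on the SOX2 arrays, against 77.7 and 96.2 on the control arrays, log2 change 2.20, SE 0.16, adjusted p = 0.000303). FEZF2, a forebrain factor, was not above the filter intensity on either control array and was at least 1.33-fold higher (105 and 111 on the SOX2 arrays). FEZF2 was above the filter intensity only on the SOX2 arrays, and SIX6 only there and on control replicate 2. Both were thus tested only because they were high on the SOX2 arrays, and their rises are not independent of the filter. HESX1, a homeobox repressor of early forebrain and pituitary that is also expressed in embryonic stem cells, fell (79.1 and 101 on the SOX2 arrays, against 289 and 277 on the control arrays, log2 change -1.66, SE 0.15, adjusted p = 0.000726). SOX3, a close relative of SOX2, had a log2 change of -0.45 (adjusted p = 0.232), and SOX11, a SOX gene of immature neurons, one of 0.66 (adjusted p = 0.103). Among 12 other SOX genes SOX21 was the only rise and SOX4 the only fall (549.7 and 511 on the SOX2 arrays, against 853 and 761 on the control arrays, log2 change -0.60, adjusted p = 0.0181). Of 20 genes of neuronal differentiation 3 rose and 3 fell. DLL1, a NOTCH ligand of newborn neurons, read 143 and 209.7 on the SOX2 arrays, against 104 and 93.2 on the control arrays, and TAGLN3 is given above. The third rise was STMN2, a microtubule regulator of growing axons, which was not above the filter intensity on either control array and was at least 1.40-fold higher (107 and 122 on the SOX2 arrays). SYT4, a synaptotagmin, fell (118 and 118 on the SOX2 arrays, against 325 and 472 on the control arrays, log2 change -1.73, adjusted p = 0.0230), as did SYT1 (139.7 and 151 on the SOX2 arrays, against 252 and 196 on the control arrays) and STMN3 (1525 and 1072 on the SOX2 arrays, against 1838 and 2931 on the control arrays). The neuronal genes TUBB3 and DCX had log2 changes of 0.23 and -0.19 without a call. The calls of SOX21, SIX6, HESX1 and TAGLN3 held with any 1 array left out, although SIX6 and HESX1 were not tested under a filter on all 8 arrays. FEZF2 lost its call without control replicate 1, SOX4 without control replicate 1 or a NANOG array, and DLL1, STMN2, SYT1, SYT4 and STMN3 with 1 or more other arrays left out (adjusted p up to 0.209). The rises and falls called without SOX2 replicate 2 were 3 and 3 for neural plate genes and 3 and 2 for neuronal genes.

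SOX21 also separated the SOX2 arrays from the others, at 4.73 (adjusted p = 4.0e-05) on the log2 scale against the NANOG arrays and 2.88 (adjusted p = 0.000830) against the OCT4 arrays. SIX6 was not above the filter intensity on any NANOG or OCT4 array (adjusted p = 7.2e-05 and 0.000234). HESX1 was lower than on the NANOG arrays, by -2.32 (adjusted p = 5.5e-05), and its difference from the OCT4 arrays was -0.49 (adjusted p = 0.0850).

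Of 23 listed mesendoderm and endoderm genes 7 were measured, and 3 of these rose, where 6.1% of all genes did. PRDM1, a transcriptional repressor that acts in germ cell and endoderm development, was at least 3.30-fold higher (223 and 326 on the SOX2 arrays, with neither control array above the filter intensity). CXCR4, a chemokine receptor of definitive endoderm and other migrating cells, read 179 and 156 on the SOX2 arrays, against 75.9 and 85.3 on the control arrays (log2 change 1.06, adjusted p = 0.00410), and EOMES, a T-box factor, was at least 1.20-fold higher (90.0 and 106). EOMES lost its call when any array other than SOX2 replicate 1 was left out, at an adjusted p of up to 0.158. Of 11 trophoblast and amnion genes, IGFBP3 (564 and 479 on the SOX2 arrays, against 145 and 125 on the control arrays, log2 change 1.95, SE 0.17, adjusted p = 0.000726) and DLX5 (185 and 205 on the SOX2 arrays, against 89.4 and 93.0 on the control arrays, log2 change 1.10, adjusted p = 0.00213) rose. IGFBP3 is a binding protein of insulin-like growth factors and DLX5 a homeobox factor of neural crest and placenta. PRDM1, CXCR4 and DLX5 were not tested under a filter on all 8 arrays. Of 8 fibroblast markers measured, S100A4 and COL1A2 fell, where 5.01% of all genes did, and the list's summed intensity was 2247 and 3084 on the SOX2 arrays, against 3652 and 3961 on the control arrays. For 4 blood or endothelial markers it was 471 and 503, against 434 and 538 on the control arrays, with no call. Among these markers 1 had an unadjusted p under 0.05, as did 3314 of all 12436 genes.

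Calls in the signalling lists included feedback genes and direct targets. Over all genes 6.1% rose and 5.01% fell, so the 1 fall in each of the WNT and retinoic acid lists is near the share of all genes. ID1 and ID3, inhibitors of basic helix-loop-helix factors and direct targets of BMP signalling, fell. ID1 read 379.9 and 403 on the SOX2 arrays, against 905 and 966 on the control arrays (log2 change -1.26, SE 0.15, adjusted p = 0.00207), and ID3 read 783 and 726 on the SOX2 arrays, against 1457 and 1552 on the control arrays (1.99-fold lower, adjusted p = 0.00230). A further ID1 probe had a log2 change of -0.23. SMAD6, an inhibitor of the BMP pathway, was not above the filter intensity on either SOX2 array and was at least 1.68-fold lower (148 and 127 on the control arrays). These were 3 falls among 12 BMP pathway genes, with no rise, and BMP4 was not above the filter intensity on either SOX2 array (adjusted p = 0.0649). AXIN2, a feedback inhibitor of WNT signalling, fell (211 and 277 on the SOX2 arrays, against 469 and 522 on the control arrays, log2 change -1.04, adjusted p = 0.00973) and was the 1 call among 15 WNT genes. The receptor gene FZD7 had a log2 change of 0.78 (adjusted p = 0.0864). CYP26A1, which degrades retinoic acid and is induced by it, fell (173 and 144 on the SOX2 arrays, against 363 and 462 on the control arrays, log2 change -1.37, SE 0.16, adjusted p = 0.00203), the 1 call among 12 genes of that pathway. In the NOTCH list of 18, HEY1, a NOTCH target, rose (200.0 and 215 on the SOX2 arrays, against 81.6 and 79.6 on the control arrays, log2 change 1.36, adjusted p = 0.00366) with DLL1, and LFNG, which modifies NOTCH receptors, fell (224 and 288 on the SOX2 arrays, against 450.2 and 475 on the control arrays, log2 change -0.87, adjusted p = 0.00820). Further probes had log2 changes of 0.39 for HEY1 and -0.03 for LFNG. On the log2 scale LFNG differed by 0.01 (adjusted p = 0.971) from the NANOG arrays and by 0.06 (adjusted p = 0.839) from the OCT4 arrays. Its low value was thus shared with both other factors. For ID3 these differences were -0.02 (adjusted p = 0.916) and -0.78 (adjusted p = 0.00813).

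FGF signalling through ERK induces its own inhibitors, and 2 of these moved in opposite directions. DUSP6, the ERK phosphatase, rose (730.2 and 894 on the SOX2 arrays, against 278 and 347 on the control arrays, log2 change 1.38, SE 0.16, adjusted p = 0.00213), while SPRY1 fell (512 and 409.6 on the SOX2 arrays, against 1243 and 1018 on the control arrays, log2 change -1.30, SE 0.16, adjusted p = 0.00230). DUSP6 differed by 1.18 (adjusted p = 0.00218) from the NANOG arrays and by 0.11 (adjusted p = 0.722) from the OCT4 arrays on the log2 scale. PHLDA1 rose as well (1994 and 1964 on the SOX2 arrays, against 1034 and 1288 on the control arrays, log2 change 0.78, adjusted p = 0.0358), and 15 of 18 genes in the list did not pass, among them FGF2 and FGFR1 with log2 changes of -0.11 and -0.25. In the nodal list of 13 genes GDF3 was the only call, where 5.01% of all genes fell and 6.1% rose. NODAL read 97.3 and 99.1 on the SOX2 arrays, against 305 and 121 on the control arrays, a log2 difference of -0.96 that did not pass (adjusted p = 0.378), with the control arrays far apart. The calls of ID1, ID3, CYP26A1, HEY1, DUSP6 and SPRY1 held with any 1 array left out, with HEY1 not tested under a filter on all 8 arrays. LFNG lost its call without control replicate 1, AXIN2 without each control array, and SMAD6, DLL1 and PHLDA1 without each control and each NANOG array in turn, with an adjusted p of up to 0.214. Without SOX2 replicate 2 the rises and falls called were 0 and 3 in the BMP list, 0 and 2 in the WNT list, 2 and 1 in the NOTCH list, 3 and 2 in the FGF list, 1 and 1 in the nodal list and 1 and 2 in the retinoic acid list.

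Genes of mitosis were lower. All 28 listed genes were measured, 26 were lower in mean on the SOX2 arrays, 9 fell and 0 rose, with a median log2 change of -0.42 (-0.39 on replicate 1 and -0.43 on replicate 2). KIF20A, a kinesin of cytokinesis, read 436 and 394 on the SOX2 arrays, against 887 and 1052 on the control arrays (log2 change -1.22, SE 0.13, adjusted p = 0.00138). CDK1, the kinase that drives entry into mitosis, read 409 and 423 on the SOX2 arrays, against 591 and 851 on the control arrays (log2 change -0.77, adjusted p = 0.0310), and TOP2A, which untangles chromosomes, read 1089 and 1093 on the SOX2 arrays, against 1683 and 1910.1 on the control arrays (log2 change -0.72, adjusted p = 0.0109). TTK (397 and 286 on the SOX2 arrays, against 503 and 588 on the control arrays) and TPX2 (641 and 729 on the SOX2 arrays, against 1086 and 1036 on the control arrays) fell by 0.69 and 0.63 on the log2 scale. MKI67, CCNB1 and PLK1 had log2 changes of -0.10, -0.43 and 0.01 without a call. KIF20A alone held its call with any 1 array left out. Mitotic falls numbered 5 without control replicate 1, 1 without control replicate 2, 4 without each NANOG array in turn and 14 without SOX2 replicate 1. The count was 7 falls and 0 rises without SOX2 replicate 2.

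Of 33 DNA replication genes 3 fell, and the median log2 change was -0.06, where 5.01% of all genes fell and 6.1% rose. The falls were MCM4 (1697 and 997 on the SOX2 arrays, against 2517 and 2477 on the control arrays, log2 change -0.94, adjusted p = 0.0382), PRIM1 (518 and 489 on the SOX2 arrays, against 798 and 739 on the control arrays, log2 change -0.61, adjusted p = 0.0146) and POLE2 (444 and 414 on the SOX2 arrays, against 579 and 594 on the control arrays, log2 change -0.45, adjusted p = 0.0371). MCM4 belongs to the replicative helicase, PRIM1 to primase and POLE2 to a replicative polymerase. None of these calls held with any 1 array left out, and their adjusted p reached 0.180, with 1 fall and 0 rises in the list without SOX2 replicate 2. Among 16 regulators of the G1 phase, CCND1 (cyclin D1) fell (397 and 399 on the SOX2 arrays, against 1076 and 1055 on the control arrays, log2 change -1.42, SE 0.14, adjusted p = 0.00122) and its partner kinase gene CDK6 rose (542 and 359.5 on the SOX2 arrays, against 200.3 and 272 on the control arrays, log2 change 0.92, adjusted p = 0.0308). The CCND1 call held with any 1 array left out, and the CDK6 call was lost without control replicate 1 or any NANOG or OCT4 array (adjusted p up to 0.192).

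Genes of MHC class I and antigen presentation were higher as a list. MHC class I molecules display peptides that the immunoproteasome cuts and that TAP moves into the endoplasmic reticulum. Of 14 genes measured 8 rose and 0 fell, and the median log2 change was 0.65 (0.56 on replicate 1 and 0.72 on replicate 2). CD1C was above the filter intensity only on the SOX2 arrays, so it was tested only because it was high there. It could enter these counts, and those against the other factors below, only as a higher gene. Besides CD1C, the heavy chain gene HLA-B read 661 and 801 on the SOX2 arrays, against 278 and 298 on the control arrays (log2 change 1.34, SE 0.13, adjusted p = 0.00122), and the immunoproteasome gene PSMB9 read 171 and 213 on the SOX2 arrays, against 81.7 and 79.9 on the control arrays (log2 change 1.24, SE 0.17, adjusted p = 0.00382). The transporter gene TAP1 read 1001 and 764 on the SOX2 arrays, against 334 and 459 on the control arrays (log2 change 1.16, adjusted p = 0.00814), and TAPBP, which holds MHC class I at the transporter, read 363 and 660.1 on the SOX2 arrays, against 193 and 246 on the control arrays (log2 change 1.17, adjusted p = 0.0230). A further TAPBP probe had a log2 change of 0.0045. The class I heavy chain genes HLA-C and HLA-F and the immunoproteasome gene PSMB8 were the other rises, while HLA-E and HLA-G did not pass, with log2 changes of 0.08 and 0.18, and B2M, the common light chain, had a log2 change of 0.68 (adjusted p = 0.0569). HLA genes share sequence, so their single values are uncertain. CD1C, HLA-B and PSMB9 held their calls with any 1 array left out, but CD1C and PSMB9 were not tested under a filter on all 8 arrays. Rises in the list numbered 4 without either control array, 5 without either NANOG array and 8 without SOX2 replicate 2. Against the NANOG arrays 7 of the 14 genes were higher (8.93% of all genes) and 1 lower, and against the OCT4 arrays 8 were higher (3.91% of all genes) and 0 lower.

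Interferon-stimulated genes, several of which share control with MHC class I, split in direction. Of 20 measured 5 rose and 2 fell (median 0.29). MX1, an antiviral GTPase, read 510.1 and 433 on the SOX2 arrays, against 173 and 184 on the control arrays (log2 change 1.40, SE 0.13, adjusted p = 0.000981), and ISG20, an exonuclease, read 438 and 414 on the SOX2 arrays, against 193 and 179.8 on the control arrays (log2 change 1.19, SE 0.12, adjusted p = 0.00124). IFIT1, which binds foreign RNA, read 257 and 238 on the SOX2 arrays, against 131 and 122 on the control arrays (log2 change 0.97, adjusted p = 0.00204), and IFIH1 and IFIT3 rose as well. BST2, which tethers budding virus, fell (175 and 167 on the SOX2 arrays, against 553 and 445 on the control arrays, log2 change -1.53, SE 0.19, adjusted p = 0.00276), as did IFITM1, which blocks viral entry and is abundant in stem cells (646 and 502 on the SOX2 arrays, against 3449.7 and 1289 on the control arrays, log2 change -1.89, adjusted p = 0.0379). The control arrays differed widely for IFITM1, and its call did not hold. ISG15 and IRF1 had log2 changes of 0.21 and 0.01 without a call. IFIH1 lost its call as well, with an adjusted p of up to 0.200 over both genes, and 7 rises and 1 fall were called without SOX2 replicate 2. All arrays carried RNA from cells that had received a virus, so the comparison is between vectors and not with untransduced cells.

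Genes of sterol handling changed in both directions. Cells sense cholesterol through SREBP factors, which switch on synthesis and uptake genes when sterols are low and are held back by oxysterols such as the product of CH25H, and through LXR receptors, which oxysterols activate. Of 18 cholesterol synthesis and uptake genes 6 fell and 0 rose, with a median log2 change of -0.14. INSIG1, which retains SREBP in the endoplasmic reticulum, read 384 and 253 on the SOX2 arrays, against 632 and 624 on the control arrays (log2 change -1.01, adjusted p = 0.0123). HMGCS1, an early enzyme of the pathway, read 933 and 847 on the SOX2 arrays, against 1539 and 1817 on the control arrays (log2 change -0.91, adjusted p = 0.0270), and SQLE, the squalene epoxidase, read 574 and 489 on the SOX2 arrays, against 864 and 1032 on the control arrays (log2 change -0.83, adjusted p = 0.00828). MSMO1 (345 and 323 on the SOX2 arrays, against 553 and 664 on the control arrays) and TM7SF2 (322 and 326 on the SOX2 arrays, against 547 and 526 on the control arrays), both of late steps, fell by 0.86 and 0.73 on the log2 scale, although 1 of 2 further MSMO1 probes had a log2 change of 0.09. DHCR7, the last enzyme of one branch, had a log2 change of 0.50 (adjusted p = 0.181). Of 11 fatty acid synthesis genes ACSS2 (189 and 191 on the SOX2 arrays, against 405 and 320.1 on the control arrays, log2 change -0.92, adjusted p = 0.0217) and FADS2 (113 and 81.3 on the SOX2 arrays, against 159.9 and 154 on the control arrays, log2 change -0.71, adjusted p = 0.0343) fell. In the lipid transport list 6 of 16 rose and 1 fell, with a median of -0.01, on the other side of 0 from most calls. LIPA, the lysosomal lipase that frees cholesterol, read 1441 and 1268 on the SOX2 arrays, against 322 and 403 on the control arrays (log2 change 1.91, SE 0.14, adjusted p = 0.000379), and ABCA1, the cholesterol exporter and an LXR target, read 700.4 and 472 on the SOX2 arrays, against 222 and 252 on the control arrays (log2 change 1.28, adjusted p = 0.0126). CD36, a fatty acid and lipoprotein receptor, read 226 and 231 on the SOX2 arrays, against 113 and 145 on the control arrays (log2 change 0.83, adjusted p = 0.0119), while the LXR target genes ABCG1 and MYLIP had log2 changes of -0.01 and -0.32 without a call. CD36 differed by -0.37 (adjusted p = 0.127) from the NANOG arrays and by -0.30 (adjusted p = 0.276) from the OCT4 arrays on the log2 scale.

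The calls of CH25H, LIPA, SQLE and MSMO1 held with any 1 array left out. SQLE and MSMO1 lost theirs with only the 2 groups in the fit, MSMO1 also with the median of its probes, and CH25H was not tested under a filter on all 8 arrays. The other calls of these lists reached an adjusted p of up to 0.203. Cholesterol pathway falls numbered 2 without control replicate 1 and 3 without control replicate 2. Lipid transport rises numbered 2 without control replicate 1. With SOX2 replicate 2 left out, 1 rose and 6 fell in the cholesterol list and 5 rose and 2 fell in the lipid transport list. CH25H was not above the filter intensity on either NANOG array (adjusted p = 7.2e-05) and differed from the OCT4 arrays by 3.27 (adjusted p = 0.000610) on the log2 scale. LIPA differed from the NANOG arrays by 2.19 (adjusted p = 6.9e-05) and from the OCT4 arrays by 2.38 (adjusted p = 0.000234).

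Most calls among genes of the extracellular matrix and its receptors were rises. Of 22 collagen and matrix genes 7 rose and 1 fell (median 0.24), of 15 integrin and laminin genes 3 rose and 0 fell (median 0.35), and of 14 genes of the epithelial-mesenchymal switch 3 rose and 0 fell, although that list's median was -0.06. COL18A1, a basement membrane collagen, read 1231 and 1420.4 on the SOX2 arrays, against 419 and 755 on the control arrays (log2 change 1.23, adjusted p = 0.0161), and COL11A1, a fibrillar collagen, read 281 and 279 on the SOX2 arrays, against 97.9 and 146 on the control arrays (log2 change 1.23, adjusted p = 0.00619). COL12A1 (126 and 155 on the SOX2 arrays, against 66.0 and 84.9 on the control arrays), with a further probe at -0.31, and VCAN, a matrix proteoglycan (1988 and 1817 on the SOX2 arrays, against 826 and 1338 on the control arrays), rose by 0.90 and 0.85 log2 units. COL1A2 fell (251 and 213 on the SOX2 arrays, against 374 and 461 on the control arrays, log2 change -0.84, adjusted p = 0.0310). The integrin chain ITGAV, part of receptors for vitronectin, read 958 and 1014 on the SOX2 arrays, against 294 and 436 on the control arrays (log2 change 1.46, SE 0.17, adjusted p = 0.00225), ITGA5, of the fibronectin receptor, read 232 and 295 on the SOX2 arrays, against 119 and 139.6 on the control arrays (log2 change 1.03, adjusted p = 0.00883), and LAMB1, a laminin chain, read 242 and 396 on the SOX2 arrays, against 136 and 141 on the control arrays (log2 change 1.16, adjusted p = 0.0110). VIM, the intermediate filament of mesenchymal cells, read 8975 and 10129 on the SOX2 arrays, against 3032 and 4526 on the control arrays (log2 change 1.36, adjusted p = 0.00366), and CDH2 (N-cadherin), also of neuroectoderm, read 4917 and 3471 on the SOX2 arrays, against 1124 and 1905 on the control arrays (log2 change 1.50, adjusted p = 0.00921). TWIST1 read 120.5 and 136 on the SOX2 arrays, against 77.5 and 86.1 on the control arrays. CDH1 (E-cadherin) and EPCAM, of epithelial junctions, had log2 changes of 0.40 (adjusted p = 0.115) and -0.27 (adjusted p = 0.185).

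The calls of FBN2, COL18A1, COL11A1, ITGAV and VIM held with any 1 array left out. COL18A1, COL11A1 and VIM lost theirs with only the 2 groups in the fit, and COL11A1 was not tested under a filter on all 8 arrays. The other calls reached an adjusted p of up to 0.162. Matrix rises numbered 3 without control replicate 1 and 11 without SOX2 replicate 1. Integrin and laminin rises numbered 1 without control replicate 1 and 7 without SOX2 replicate 1. CDH2 lost its call without control replicate 1, and TWIST1 without each control array, each NANOG array and SOX2 replicate 2 in turn. Dropping SOX2 replicate 2 left 7 rises and 1 fall in the matrix list, 3 rises in the integrin and laminin list and 2 in the epithelial-mesenchymal list.

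None of 32 cytosolic ribosomal protein genes passed in limma (median log2 change -0.03; 1 with an unadjusted p under 0.05), and their summed intensity was 315068 and 316559 on the SOX2 arrays, against 319805 and 317749 on the control arrays. SOX2 replicate 2 was thus the low array for ribosomal RNA but not for these summed messengers. None of 31 oxidative phosphorylation genes passed either (median -0.18), although 25 were lower in mean and 10 had an unadjusted p under 0.05. Over all genes the unadjusted p was under 0.05 for 3314 of 12436. Of 30 hypoxia and glycolysis genes 4 fell and 1 rose (median -0.26), where 5.01% of all genes fell and 6.1% rose. LDHA, which makes lactate, read 4302 and 5200.1 on the SOX2 arrays, against 9319 and 6737 on the control arrays (log2 change -0.74, adjusted p = 0.0338), and BNIP3, a mitophagy gene induced by hypoxia, read 938 and 879 on the SOX2 arrays, against 2483 and 1335 on the control arrays (2.01-fold lower, adjusted p = 0.0397). ADM, the peptide hormone adrenomedullin, rose (7727 and 7388 on the SOX2 arrays, against 1466 and 3858 on the control arrays, log2 change 1.67, adjusted p = 0.0242). The 2 control arrays differed widely for LDHA, BNIP3 and ADM, and none of the 5 calls in this list held with any 1 array left out (adjusted p up to 0.194). Falls in the list ranged from 0 without control replicate 1 to 8 without SOX2 replicate 1, with 7 without control replicate 2, 1 without either NANOG array and 2 without either OCT4 array. It held 1 rises and 4 falls without SOX2 replicate 2.

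Set against the arrays of the other factors in the same fit, the stress genes were higher on the SOX2 arrays too. Of the 31 genes 21 were higher than on the NANOG arrays (8.93% of all genes) and 1 lower, and 13 were higher than on the OCT4 arrays (3.91% of all genes) and 2 lower. These comparisons use the same SOX2 arrays as the comparison with control. TRIB3 had a geometric mean of 1982 on the SOX2 arrays, 268 on the NANOG arrays and 497 on the OCT4 arrays. Its log2 difference was 2.89 (adjusted p = 0.000119) from the NANOG arrays and 1.99 (adjusted p = 0.00189) from the OCT4 arrays. Of the mitotic genes, 1 of 28 was lower than on the NANOG arrays (8.81% of all genes) and 7 lower than on the OCT4 arrays (2.99%). For TOP2A the difference was -0.04 (adjusted p = 0.876) from the NANOG arrays and -0.58 (adjusted p = 0.0314) from the OCT4 arrays. GDF3, at -5.49 (adjusted p = 0.000183) from the NANOG arrays, and CCND1, at -1.51 (adjusted p = 0.000840) from the OCT4 arrays, were among the named genes that were lower on the SOX2 arrays. Over all genes 17.7% differed from the NANOG arrays and 6.9% from the OCT4 arrays.

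**Figure D5:**
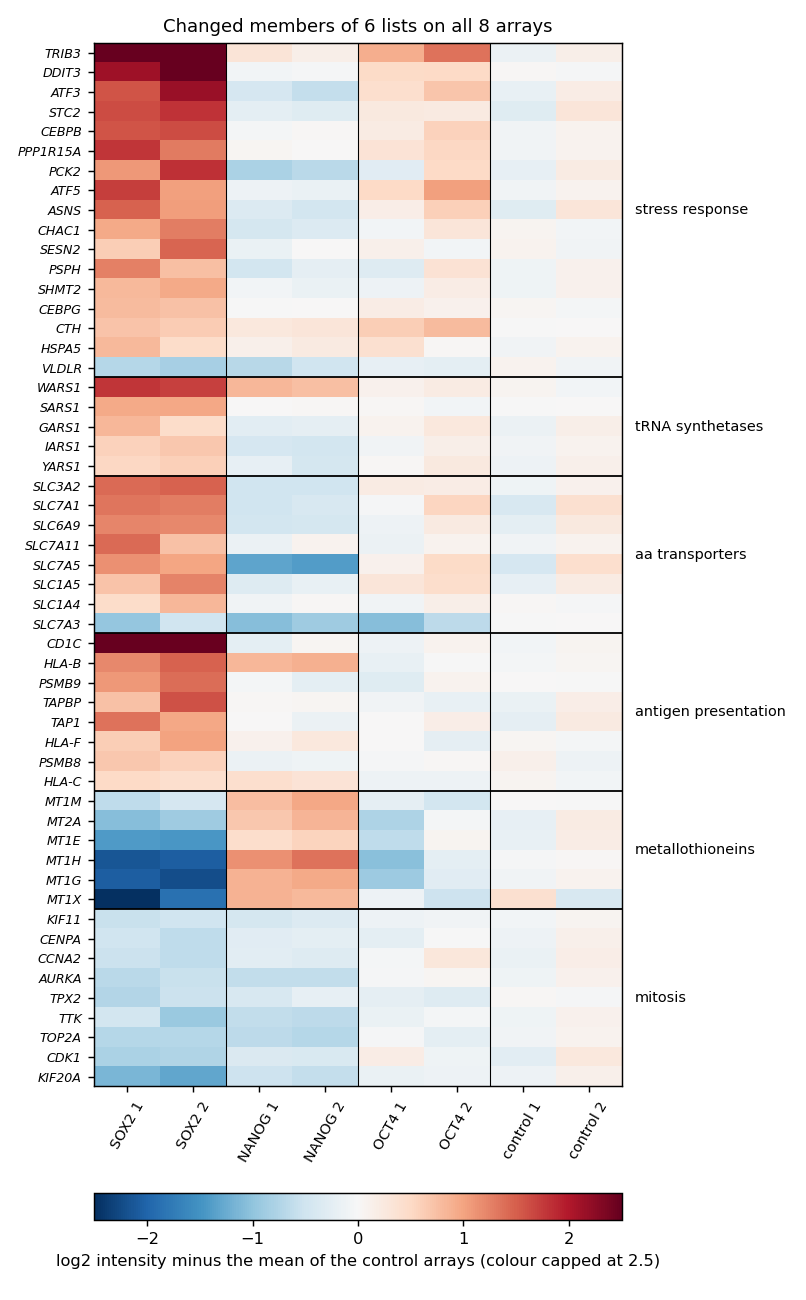
Log2 intensity minus the mean of the 2 control arrays (colour, limited to 2.5 either way) of the called members of 6 gene lists on all 8 arrays. Stress, synthetase, transporter and antigen presentation genes other than VLDLR and SLC7A3 are red in both SOX2 columns, metallothionein and mitotic genes are blue there, and metallothioneins are red in the NANOG columns.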

How the data were processed

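The authors deposited processed intensity values for 47323 probes on 8 Illumina arrays, with a median of 117.1 on every array and sorted values that differed by at most 2.3 between arrays, as quantile normalization leaves them. No header or label names the tool. The deposited raw signals were not used, because the names of their 16 columns match no label.

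The intensities were background-corrected (normexp, offset 50) and put on the log2 scale, with limma 3.58.1 under R 4.3.3. Probes above 123.7 (the 60th percentile) on at least 2 of 8 arrays were kept, 21828 in all. The probe with the highest mean stood for a gene, which gave 12436 genes. Names came from the platform annotation, in which 30113 probes had 1 symbol, 8 had several and 17202 had none. Of the named probes 30074 matched RefSeq (GRCh38.p14) by gene number.

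One limma model (lmFit, eBayes) with a mean per group used all 8 arrays, with 4 residual and 4.39 prior degrees of freedom and a median residual SD of 0.139 log2 units. Tests were two-sided, adjusted by Benjamini-Hochberg over 12436 genes, with a threshold of 0.05. Fold changes include the offset, which understates changes of dim genes. A gene not above the filter intensity on either array of a group has a bound, for which a dim array's value was raised to the filter intensity where it lay below. The number of arrays, 2 per group, limits the precision.

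The members and the gene lists were chosen with earlier results of these data known. Named by rule were the 3 factors, the 15 largest rises and falls with no overlap between groups, up to 5 called members of each list (or 2 uncalled ones as values where fewer than 2 passed) and the 10 largest differences each way between the SOX2 arrays. Other list members given with values were chosen after their values were seen. Alternatives were no background correction, an offset of 16, no filter, a filter on all 8 arrays, only the 2 groups in the fit, array weights, median centring, the median of a gene's probes, a trend and robust prior, the replicate number as a block, and each array left out. The procedure was tested on simulated data.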

Additional observations from a re-analysis of the deposited data

How the results depend on the processing

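The number of genes changed against control was 1382 (759 risen and 623 fallen). It was 582 (374 and 208) with array weights and 207 (139 and 68) with only the 4 arrays of the comparison in the fit, and it ran from 336 to 3516 (208 to 1928 risen and 128 to 1588 fallen) with 1 array left out in turn. The lowest counts came without control replicate 1 and the highest without SOX2 replicate 1. Against the NANOG arrays 2205 genes differed, 1400 with only those 2 groups in the fit and 607 to 4003 with 1 array left out. Against the OCT4 arrays 858 differed, 446 with array weights, 184 with only those 2 groups and 238 to 3273 with 1 array left out. With no background correction, an offset of 16, no filter, a filter on all 8 arrays, the median of probes, a trend and robust prior or median centring, the count against control stayed between 1170 and 1382.

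Same-numbered replicates of different groups had correlated deviations of -0.19 (SOX2 and control), 0.14 (SOX2 and NANOG), -0.11 (SOX2 and OCT4), -0.01 (control and NANOG), 0.38 (control and OCT4) and 0.02 (NANOG and OCT4). The labels give same-numbered arrays only a number in common. Whether those of control and OCT4 share more was not tested. With the replicate number as a block, 1197 genes changed against control (672 risen and 525 fallen), 2125 against the NANOG arrays and 760 against the OCT4 arrays.

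Of 167 named genes 134 were called, and 65 of these were called with any 1 array left out and 43 under every alternative run. The number of named calls lost was 75 with only 2 groups in the fit, 43 with array weights, 22 with the filter on all 8 arrays, which leaves dim genes untested, 11 with the median of probes, 9 with the replicate block, 6 with an offset of 16, 4 with no background correction, 3 with no filter and 1 with a trend and robust prior. Called genes did not change sign. Uncalled genes did, and the cause was not tested. With 1 array left out in turn, their log2 changes ran from -0.0052 to 1.86 for TMEM184B, -0.15 to 1.57 for CDC42BPB, -0.40 to 1.67 for OTUB1, -0.24 to 1.44 for SF1, -0.16 to 1.32 for AGPAT1, -0.36 to 1.26 for HMGA1, -1.80 to 1.36 for NBPF10, -0.46 to 0.019 for KDR, -1.92 to 1.47 for MAP1B, -2.04 to 1.37 for NBPF9, -2.49 to 0.21 for GNL3L, -2.87 to 0.059 for ALYREF, -3.27 to 0.37 for EIF3CL and -0.16 to 0.15 for the POU5F1 probe ILMN_1665632. The sign turned without control replicate 1 for KDR and without SOX2 replicate 2 for the others, and without control replicate 2 as well for MAP1B and the POU5F1 probe. With the median of probes NBPF10 was at 0.21. Of 47 named calls with further probes, 24 had one that passed the same way and 5 one of opposite sign (GRB10, COL12A1, TNFRSF10B, BAX and MSMO1). Other further probes had the same sign but changed less and did not pass. They include those given above for UPP1, PDCL3P4, TAPBP, HEY1, LFNG, ID1, IARS1 and SLC3A2, and those of COL11A1 (0.26), LAMB1 (0.37) and PHLDA1 (0.17). Probes near background limit dim genes to bounds, in 62 called genes on the control arrays and 35 on the SOX2 arrays.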

Other observations

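Against control, where 6.1% of all genes rose and 5.01% fell, 3 of 13 immediate early genes rose. KLF6 (878 and 903 on the SOX2 arrays, against 442 and 466 on the control arrays, log2 change 0.97, adjusted p = 0.00318) and FOSL1 (171 and 218 on the SOX2 arrays, against 118 and 115 on the control arrays, log2 change 0.73, adjusted p = 0.0237) rose beside ATF3, while FOS, JUN, EGR1 and MYC had log2 changes between -0.01 and 0.12 without a call. Of 18 p53 target genes 3 rose and 2 fell. GADD45A, a stress gene shared with the ATF4 response, read 649.8 and 597 on the SOX2 arrays, against 292 and 329 on the control arrays (log2 change 1.01, adjusted p = 0.0131), SESN2 read 147 and 263 on the SOX2 arrays, against 101 and 89.9 on the control arrays (log2 change 1.04, adjusted p = 0.0303), and the death receptor gene TNFRSF10B read 1589 and 1504 on the SOX2 arrays, against 849 and 996 on the control arrays (log2 change 0.75, adjusted p = 0.00875). RRM2B, a ribonucleotide reductase subunit, fell (185 and 92.0 on the SOX2 arrays, against 364 and 366 on the control arrays, log2 change -1.49, adjusted p = 0.0126), as did BAX, which permeabilises mitochondria (1481 and 1037 on the SOX2 arrays, against 2165 and 2205 on the control arrays, log2 change -0.82, adjusted p = 0.0227, with a further probe at 0.24). CDKN1A and MDM2, classical p53 targets, had log2 changes of -0.23 and -0.37 without a call. None of the p53 list's calls held with any 1 array left out (adjusted p up to 0.131).

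Of 21 heat shock and chaperone genes HSPA1A rose (291 and 342 on the SOX2 arrays, against 122 and 128 on the control arrays, log2 change 1.34, SE 0.13, adjusted p = 0.00119) and held its call with any 1 array left out. CCT5 rose and HSPA4, HSPE1 and HSPA8 fell, with calls that did not hold (adjusted p up to 0.232). Among 14 imprinted genes GRB10, an adaptor that dampens insulin receptor signalling, rose (857 and 943 on the SOX2 arrays, against 319.8 and 380.0 on the control arrays, log2 change 1.37, SE 0.13, adjusted p = 0.000986) and held, with further probes from -0.06 to 1.52. SGCE rose (log2 change 0.62, adjusted p = 0.0217) and NDN fell (log2 change -0.56, adjusted p = 0.0142). SGCE lost its call without control replicate 1 or a NANOG array, and NDN without either control array. The histone gene H2BC12 rose (842 and 897 on the SOX2 arrays, against 522 and 401 on the control arrays, log2 change 0.93, adjusted p = 0.0184), with a call that was lost without control replicate 2 or a NANOG array.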
